A study of Drosophila melanogaster with 12 samples.

Results

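Transcript levels of adult fruit flies (Drosophila melanogaster) were compared between SPS2 knockdown flies, in which the gene for selenophosphate synthetase 2 was targeted, and wild-type flies. The comparison used the adult arrays of the series, 6 of 12: 3 arrays of adult flies labelled SPS2 knockdown and 3 arrays of adult flies labelled wild type. The other 6 arrays are of larvae of the same genotypes and entered only the comparison of stages. All flies were kept on cornmeal and yeast food, total RNA was extracted with TRIzol, and biotin-labelled cRNA was made with a 3' in vitro transcription kit for an Affymetrix Drosophila genome array. How the knockdown was made and driven, which line served as wild type, whether the lines shared a genetic background, and the sex, age and body part of the adults could not be taken from the labels. The knockdown and any other difference between the lines therefore cannot be told apart. The labels call the arrays of a group biological replicates, and nothing says that they came from separate cultures, so the p-values measure only the spread between these samples.

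Selenocysteine is an amino acid that is put into a few proteins at UGA codons. Selenophosphate synthetase 2 (gene Sps2) makes selenophosphate, which gives its selenium to selenocysteine as that amino acid is formed on its own tRNA, and in flies Sps2 is itself a selenoprotein. Most selenoproteins of known function are oxidoreductases, so the genes of thiol, peroxide and glutathione metabolism were examined next to the selenoprotein machinery, followed by detoxification, energy, growth, reproduction, immunity and organ markers.

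The authors' values are log2 signals, and they are given below as linear signal for single arrays and as log2 for differences, knockdown minus wild type. A difference was called where its Benjamini-Hochberg adjusted p (limma, over all 18769 probe sets) was under 0.05, and "rose" and "fell" are used only of such calls. Signal below the 40th percentile of an array, 34.2 to 36.0 on the knockdown arrays and 39.3 to 41.9 on the wild-type arrays, was treated as low, and where 1 group was low its arrays' percentile took its place, so that the fold is a lower bound ("at least"). In these mixed tissues, fewer cells of a type and less RNA per cell cannot be told apart.

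Sps2 was lower on every knockdown array. Its signal was 138, 138 and 113 on the knockdown arrays, against 902, 878 and 920 on the wild-type arrays. The groups were far apart, and Sps2 fell by 2.80 on the log2 scale (SE 0.09, n = 3 arrays a group, adjusted p = 9.1e-08), a 6.97-fold difference. The signal left in the knockdown was above the low range on all 3 arrays. The labels of the adult arrays thus matched the level of the targeted gene.

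The other genes of selenoprotein synthesis and the fly selenoproteins changed by far less. Of 9 genes measured, 3 rose and 3 fell, where 19.4% of all 11982 genes measured rose and 21.7% fell. SelG, a selenoprotein of the endoplasmic reticulum, had signals of 831, 792 and 910 in the knockdown, against 1104, 1126 and 1189 in wild type, and fell by 0.43 (SE 0.06, adjusted p = 0.00064). SelT, in flies a cysteine-containing relative of a mammalian selenoprotein, had 2466, 2620 and 2536 in the knockdown, against 3474, 3533 and 3540 in wild type, and fell by 0.47 (SE 0.04, adjusted p = 2.7e-05). For both genes the groups did not overlap, as for 54.9% of all genes. BthD, the third fly selenoprotein, was not called (0.15, SE 0.07, adjusted p = 0.14), and its signals overlapped, with 1471, 1415 and 1386 in the knockdown and 1216, 1433 and 1215 in wild type.

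Among the synthesis factors, Sbp2, which binds the selenocysteine insertion element, rose by 0.18 (SE 0.05, adjusted p = 0.012). SelR, a methionine sulfoxide reductase that uses cysteine in flies, rose by 0.21 (SE 0.04, adjusted p = 0.0038), and its second probe set was called in the same direction at 0.59. Secp43, a protein associated with the selenocysteine tRNA, rose by 0.30 (SE 0.10, adjusted p = 0.041), but this call was lost without knockdown replicate 1, 2 or 3 or wild-type replicate 1 or 2, with an adjusted p of up to 0.141. The selenocysteine elongation factor eEFSec (0.25, adjusted p = 0.21) and the enzyme SecS, which completes selenocysteine on its tRNA, (-0.08, adjusted p = 0.50) were not called. With array medians set equal, SecS stood at 0.20 and the median of the 9 genes at 0.43, against 0.15 as deposited.

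**Figure D1:**
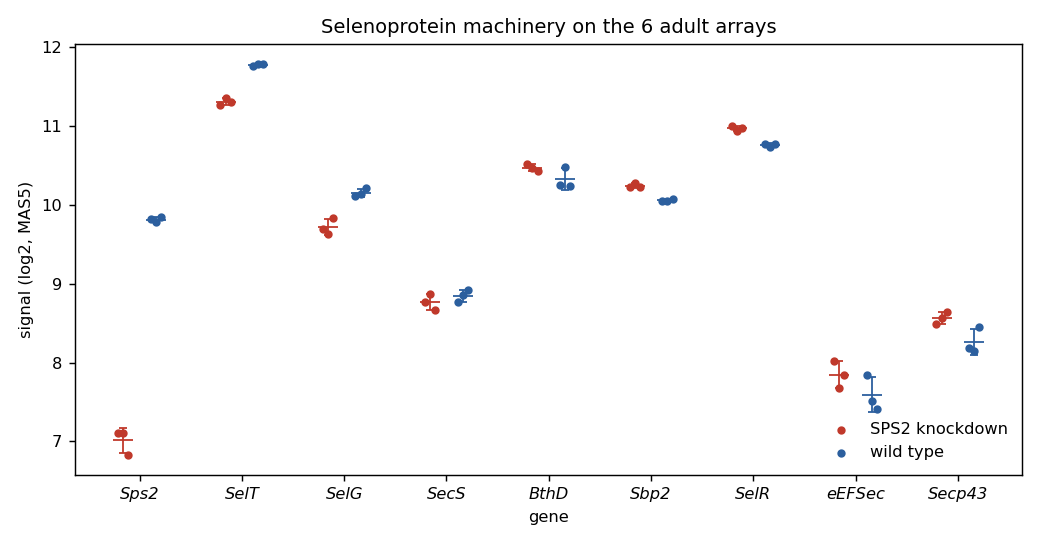
Log2 signal of the selenoprotein genes and synthesis factors on each of the 3 adult knockdown and 3 adult wild-type arrays, 1 point per array. Bars give the mean and standard deviation of each group. Sps2 is separated by 6.97-fold, SelG and SelT are lower in the knockdown by less than 1.5-fold, and BthD, eEFSec and SecS overlap between the groups.

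Across the whole array, 5770 of 18769 probe sets were called (30.7%), 2726 higher in the knockdown (14.5%) and 3044 lower (16.2%). Differences of 2-fold or more were far fewer: 804 probe sets (4.28%), with 264 higher (1.41%) and 540 lower (2.88%). Counted by gene, with the brightest probe set standing for a gene, 4916 of 11982 were called (41.0%) and 586 by 2-fold or more (4.89%), of which 181 were higher (1.51%) and 405 lower (3.38%). The arrays of a group resembled each other more than those of the other group, with Spearman correlations over probe sets of 0.967 to 0.969 within the knockdown, 0.968 to 0.970 within wild type and 0.953 to 0.961 between them.

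The direction of small changes depended on how the arrays were scaled. The median log2 signal of an array was 6.37 to 6.48 in the knockdown and 6.69 to 6.77 in wild type, although the trimmed mean of the linear signals was nearly the same on every array. The median change was -0.06 over all probe sets as deposited, and setting array medians equal adds 0.28 to every change. With that scaling 80.5% of the calls were higher in the knockdown, against 47.2% as deposited, 54.5% after quantile normalization and 43.9% with the arrays centred on the expressed probe sets, a setting chosen after seeing the data. Of the 49 gene lists, 24 had a median of the opposite sign under equal medians, and the values of those lists are given both ways below.

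The change also varied with signal level. Genes with a mean log2 signal of 6 to 8 had a median change of -0.35, and 37.0% of these 2344 genes fell while 7.55% rose. In the next class, 8 to 10, the median was 0.05, with 30.5% rising and 26.0% falling among 3526 genes. Between 10 and 12 the median was 0.09, with 38.5% rising and 20.8% falling among 2334 genes. At 12 and over it was -0.05, with 23.1% rising and 30.7% falling among 420 genes. At 4 to 6 it was -0.25, with 2.98% rising and 8.65% falling among 1815 genes. Under 4 it was -0.17, with 1.23% rising and 2.53% falling among 1543 genes. Lists of dim genes and lists of bright genes must be read against these shares. The integrity measure on the arrays, the 3' minus 5' signal of 3 control transcripts, was alike, at 2.40 to 2.52 log2 in the knockdown and 2.37 to 2.50 in wild type.

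**Figure D2:**
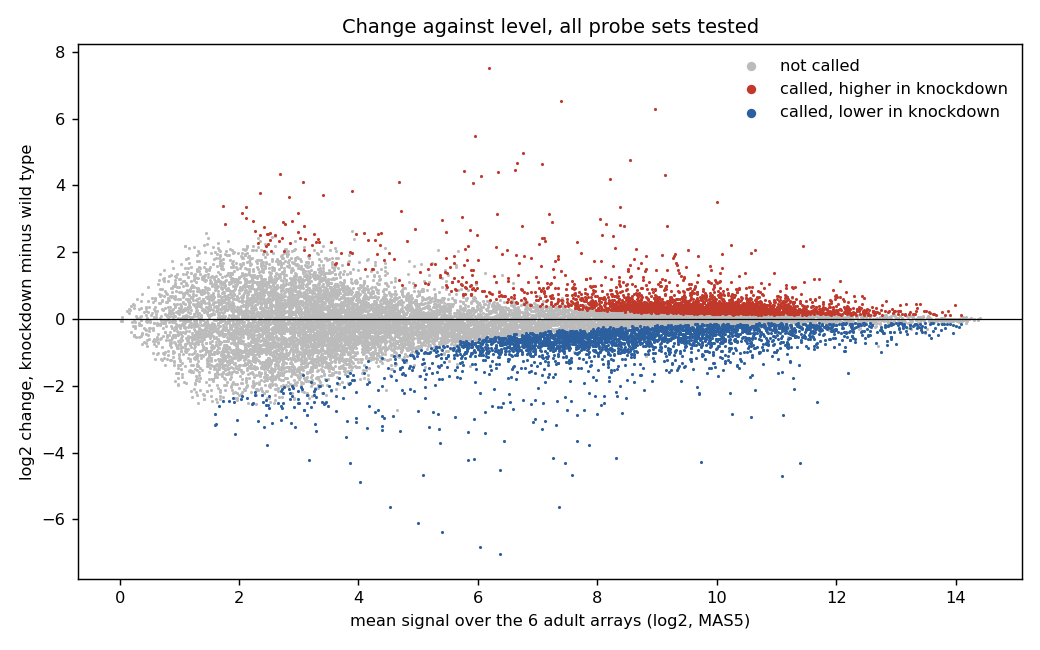
Log2 difference, knockdown minus wild type, of each of the 18769 probe sets tested against its mean log2 signal over the 6 adult arrays. Called probe sets are coloured by direction, and a horizontal line marks no change. Counted by gene, the median change, which is not drawn, was -0.35 at 6 to 8 log2 and 0.09 at 10 to 12 log2.

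The largest rises included genes of which little or no signal was seen in wild type. Of all genes, 17 were low on every wild-type array and above the array median on every knockdown array, and 9 showed the reverse. Prx6c, a peroxiredoxin of the family that reduces peroxides with a single active cysteine, had 1494, 1512 and 1827 in the knockdown, against 14.7, 9.81 and 37.7 in wild type. It was at least 39.9-fold higher (log2 6.51, SE 0.39, adjusted p = 2.8e-06). LysX, a lysozyme, had 362, 1126 and 2300 in the knockdown, against 9.10, 5.66 and 3.04 in wild type, at least 24.3-fold higher (log2 7.50, SE 0.61, adjusted p = 1.9e-05). Its knockdown arrays differed widely among themselves, and the log2 change was 8.22 without knockdown replicate 1 and 6.89 without replicate 3.

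Eip63E, a cyclin-dependent kinase first found as an ecdysone-induced gene, had 1861, 2103 and 1917 in the knockdown, against 63.8, 67.3 and 85.7 in wild type. This was a 27.3-fold rise (log2 4.77, SE 0.11, adjusted p = 9.8e-09). Its cyclin partner CycY rose as well, by 0.30 (SE 0.05, adjusted p = 0.0023), with 1102, 1088 and 1011 in the knockdown and 892, 846 and 863 in wild type. The gene whd encodes carnitine palmitoyltransferase I, which admits long-chain fatty acids to mitochondria. It had 3400, 3711 and 3232 in the knockdown, against 256, 346 and 318 in wild type, an 11.3-fold rise (log2 3.50, SE 0.10, adjusted p = 5.2e-08). A dimmer second probe set for whd stood at -0.86, at low signal in both groups.

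Several other rises started from low wild-type signal. Ser12, a serine protease, was at least 10.4-fold higher (594, 317 and 385 in the knockdown, against 3.42, 9.37 and 25.0 in wild type), with a log2 change of 5.49 that became 4.77 without wild-type replicate 1 and 6.20 without replicate 3. Zip102B, a zinc transporter of the ZIP family, was at least 11.6-fold higher (470, 537 and 518, against 51.0, 10.1 and 15.5 in wild type). Its log2 change of 4.67 became 5.34 without wild-type replicate 1, the only wild-type array on which it was not low. The esterase gene alpha-Est2 was at least 7.23-fold higher, the ionotropic receptor gene Ir76a at least 6.28-fold and the chitin deacetylase gene Cda9 at least 2.64-fold. For Ir76a the log2 change of 4.44 became 3.65 without wild-type replicate 2 and 5.09 without replicate 3, and it was called in every case. Sans, a relative of a human Usher syndrome gene, was at least 2.70-fold higher, with a log2 change of 2.60 that became 1.91 without wild-type replicate 3.

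The remaining large rises were measured above the low range in both groups. Rbm13, an RNA-binding protein, rose 7.16-fold (736, 852 and 700 in the knockdown, against 107, 102 and 110 in wild type). Lsp2, a larval storage protein of the fat body, rose 6.83-fold, with 1598, 1503 and 1402 in the knockdown, against 225, 142 and 331 in wild type. Drep1, a relative of the inhibitor of caspase-activated DNase, rose 5.72-fold and Alms1a, a centrosomal protein, 5.56-fold. The metallothionein gene MtnB rose 5.41-fold, with 305, 372 and 289 in the knockdown and 62.5, 63.8 and 51.8 in wild type.

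The largest falls were led by a glycosyltransferase and a polarity gene. Ugt35B1, a UDP-glycosyltransferase, had 5.29, 8.87 and 5.002 in the knockdown, against 618, 743 and 749 in wild type, at least 19.9-fold lower (log2 -6.83, SE 0.26, adjusted p = 1.8e-07). The gene l(2)gl, a tumour suppressor that sets up the basolateral side of epithelial cells, had 20.4, 26.0 and 23.7 in the knockdown, against 1134, 1144 and 1194 in wild type. It was at least 32.9-fold lower (log2 -5.64, SE 0.12, adjusted p = 7.3e-09). Both were low on all 3 knockdown arrays. Of the other 13 apical-basal polarity genes measured, 1 rose and 1 fell: the kinase gene aPKC rose by 0.48 (adjusted p = 0.0088), and par-1, another kinase, fell by 0.24, with a second probe set called at 0.29. The list's median was 0.04. With equal medians, 9 of its 14 genes rose and 1 fell (median 0.32). At the list's median level of 8 to 10 log2, 30.5% of all genes rose and 26.0% fell.

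Among the other falls, mol encodes the maturation factor of the NADPH oxidase Duox, which makes hydrogen peroxide at epithelia. It had 93.6, 83.7 and 54.4 in the knockdown, against 1359, 1425 and 1270 in wild type, a 17.9-fold fall (log2 -4.17, SE 0.17, adjusted p = 2.9e-07). Of the list of 3 genes, mol was the only fall, Duox was not called, and Nox rose by 0.59, a call lost without knockdown replicate 2 or 3 or wild-type replicate 1 or 2 (adjusted p up to 0.105). Obp51a, an odorant-binding protein, had 141, 127 and 398 in the knockdown, against 3905, 3961 and 3470 in wild type, a 19.6-fold fall. The spermathecal protease gene Send2 had 91.9, 40.5 and 67.0 in the knockdown, against 361, 1519 and 1167 in wild type, and its log2 change of -3.78 became -4.40 without wild-type replicate 1.

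The other large falls were in enzymes, transporters and regulators. Jon66Ci, a digestive protease, was at least 6.39-fold lower, Oatp58Db, an organic anion transporter, at least 5.25-fold and Obp99d, an odorant-binding protein, at least 3.15-fold. Of the cytochrome P450 family, Cyp12c1 fell 8.46-fold and Cyp6a19 fell 7.59-fold. For Cyp6a19 the signals were 554, 535 and 576 in the knockdown, against 4608, 3935 and 4108 in wild type. The translation regulator gene orb2 fell 7.27-fold and otk2, a receptor-like pseudokinase, 7.13-fold. GstE5, a glutathione transferase, fell 6.59-fold, with 76.2, 64.4 and 69.2 in the knockdown and 478, 459 and 444 in wild type. The gene gom was at least 2.84-fold lower, with a log2 change of -2.80 that became -2.12 without knockdown replicate 2.

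**Figure D3:**
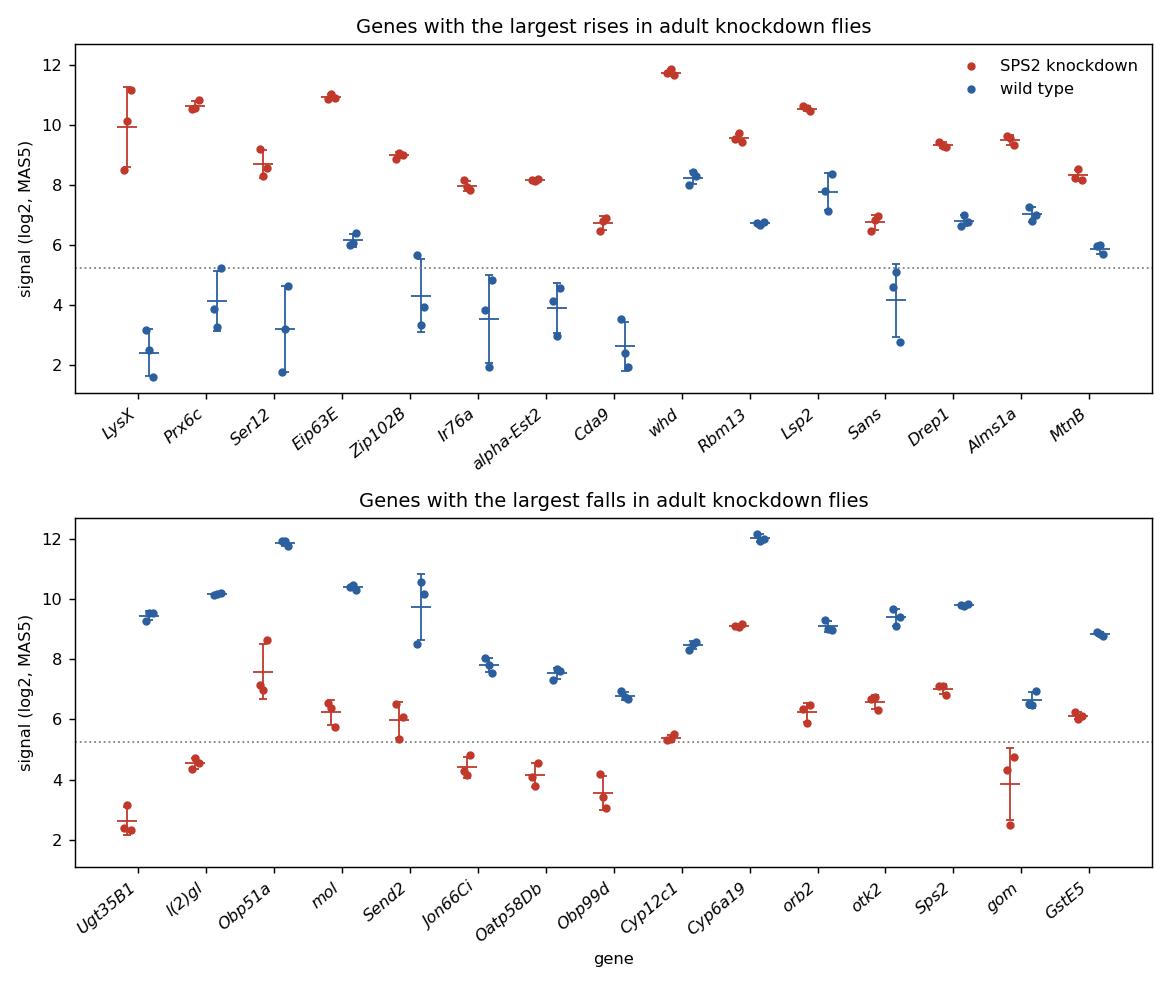
Log2 signal on each adult array of the genes that rose most (15) and fell most (15), knockdown and wild type as separate points. Bars give the mean and standard deviation of each group. The dotted line is the mean 40th percentile of the adult arrays, below which signal was treated as low. LysX and Prx6c lie below it on all wild-type arrays, and Ugt35B1 and l(2)gl on all knockdown arrays.

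Thioredoxin, peroxiredoxin and glutathione genes changed in both directions. Of 13 thioredoxin and peroxiredoxin genes, 5 rose and 6 fell, and the falls numbered 3 without wild-type replicate 2; the median was -0.06, and 0.22 with equal medians. Trxr1, the thioredoxin reductase, rose by 0.34 (2714, 2520 and 2466 in the knockdown, against 2083, 2072 and 1912 in wild type), and the mitochondrial peroxiredoxin Prx3 rose by 0.22. The testis thioredoxin TrxT fell by 0.67 (810, 760 and 877, against 1245, 1267 and 1385 in wild type) and Grx1t fell by 0.95. The members other than Prx6c thus moved by less than 2-fold.

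Of 9 genes of superoxide and hydrogen peroxide removal, 2 rose and 3 fell (median -0.03, and 0.25 with equal medians). The extracellular superoxide dismutase gene Sod3 rose by 0.34 (adjusted p = 0.00022). Ccs, a copper chaperone of superoxide dismutase, rose by 0.52, a call lost without any 1 of the arrays but knockdown replicate 3 (adjusted p up to 0.106). The catalase gene Cat fell by 0.22 (1906, 1927 and 2054 in the knockdown, against 2235, 2281 and 2319 in wild type), but stood at 0.06 with equal medians. The catalase-like gene Irc fell by 0.32 and MsrA, a methionine sulfoxide reductase, by 0.37.

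Of 15 genes of methionine, cysteine and glutathione supply, 2 rose and 5 fell (median -0.09, and 0.19 with equal medians). Odc1, the ornithine decarboxylase that starts polyamine synthesis, fell by 1.35 (291, 403 and 478 in the knockdown, against 1136, 905 and 897 in wild type). Gclm, the modifier subunit of the first enzyme of glutathione synthesis, fell by 0.73, with 87.0, 92.9 and 87.1 in the knockdown and 128, 158 and 160 in wild type. Sardh, sarcosine dehydrogenase, fell by 1.23. Ggt-1, a gamma-glutamyl transpeptidase, which breaks glutathione down outside cells, rose by 0.48 (adjusted p = 3.1e-05), and spermidine synthase (SpdS) rose by 0.30.

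The detoxification families held many of the large changes. Of 85 cytochrome P450 genes, 9 rose and 31 fell, 5 and 13 of them by 2-fold or more. The falls made up 36.5% and the median was -0.37, near the 37.0% and -0.35 of all genes at the list's median level of 6 to 8 log2. With equal medians the median was -0.09, with 16 rises and 19 falls. Cyp28d1 rose by 2.23, with 2359, 2800 and 2703 in the knockdown, against 570, 530 and 577 in wild type, while Cyp6d5 fell by 2.13, with 745, 710 and 850, against 3501, 3246 and 3335 in wild type. Cyp6a20 fell by 1.88 and Cyp4e2 rose by 0.97. These genes were named for the smallest adjusted p of the list or of its rises. That their groups lay apart by far more than the spread between arrays follows from that choice.

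Of 36 glutathione transferases, 7 rose and 10 fell (median 0.02). With equal medians, 16 rose and 4 fell. The gene se, the transferase of eye pigment synthesis, fell by 1.17 (135, 139 and 141 in the knockdown, against 320, 288 and 324 in wild type). GstE12 fell by 0.37 and GstS1 by 0.46, while GstE11 rose by 0.35. GstD5 was at least 2.58-fold higher, from low signal on all wild-type arrays.

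UDP-glycosyltransferases join sugars to small molecules for excretion. Of 35 genes, 6 rose and 6 fell, 4 each way by 2-fold or more (median -0.09, and 0.19 with equal medians). Ugt50B3 fell by 2.31, with 148, 119 and 110 in the knockdown, against 819, 654 and 438 in wild type, and Ugt35C1 by 1.57. Ugt36E1 rose by 1.05 and Ugt316A1 by 0.40. Of 12 carboxylesterases, alpha-Est2 was the only rise and 4 fell (33.3%), among them juvenile hormone esterase (Jhe) by 0.82. At the list's median level of 6 to 8 log2, 37.0% of all genes fell. The falls numbered 1 without knockdown replicate 1 or wild-type replicate 1 or 3, and 2 without knockdown replicate 2, and the median of -0.23 was 0.05 with equal medians.

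Subunits of the respiratory chain were slightly lower as deposited. Of 32 complex I subunits, 0 rose (1 at an unadjusted limma p under 0.05) and 16 fell (median -0.17), but with equal medians 9 rose and 3 fell (median 0.11), and without limma's variance trend 5 fell. As deposited the falls made up 50% of the list, against 20.8% of all genes at its median level of 10 to 12 log2. The list's falls numbered 10 without knockdown replicate 2 or wild-type replicate 2 or 3. ND-SGDH fell by 0.49 (4689, 4536 and 4756 in the knockdown, against 6640, 6420 and 6605 in wild type) and ND-39 by 0.54. Of 44 subunits of complexes II to V, 2 rose and 26 fell (59.1%, median -0.15), 16 without wild-type replicate 3 and 6 without the variance trend. With equal medians 11 rose and 5 fell (median 0.13). At the list's median level of 12 log2 and over, 30.7% of all genes fell. COX6CL, UQCR-11L and COX4L, duplicate forms of subunits, fell by 0.94, 1.00 and 0.67, and UQCR-Q, a common subunit, fell by 0.49. ATPsyngamma was called at 0.23 and, by its other probe set, at -0.16.

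Genes of the mitochondrial ribosome changed in both directions. Of 71, 18 rose (25.4%) and 4 fell (median 0.06), where 38.5% of all genes of 10 to 12 log2, the class of the list's median level, rose. With equal medians 57 rose and 1 fell, while after quantile normalization 15 rose and 10 fell. The clearest single members went opposite ways: mRpL45 fell by 1.33 (400, 371 and 384 in the knockdown, against 989, 940 and 970 in wild type) and mRpL48 rose by 1.29 (1052, 1065 and 1035, against 502, 380 and 420 in wild type). mRpS28 rose by 0.71. Of 34 cytosolic ribosomal proteins, 1 rose and 3 fell (median -0.03), and with equal medians 27 rose and 1 fell (median 0.25). RpL10Aa fell by 0.69 and RpS21 rose by 0.19.

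Aminoacyl-tRNA synthetases charge tRNAs with amino acids. Of 30, 6 rose and 4 fell (median 0.07, and 22 rises with 0 falls under equal medians). The rises numbered 3 without knockdown replicate 1 or wild-type replicate 1 or 2. CysRS, the cysteine enzyme, rose by 0.64 (988, 971 and 903 in the knockdown, against 677, 595 and 567 in wild type), LeuRS rose by 0.41, and AlaRS, the alanine enzyme, fell by 0.37. Of 31 subunits of the vacuolar proton pump, 1 rose and 12 fell (38.7%, median -0.16), but with equal medians 6 rose and 2 fell (median 0.12). At the list's median level of 8 to 10 log2, 26.0% of all genes fell. The alternative subunits Vha100-5 and Vha100-4 fell by 0.93 and 0.82, and Vha100-2 rose by 0.20.

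Genes of cell division and DNA replication rose nearly throughout. Of 28 genes, 25 rose (89.3%) and 0 fell (1 at an unadjusted limma p under 0.05), with a median of 0.40. Of all genes of 10 to 12 log2, the class of the list's median level, 38.5% rose and the median was 0.09. Over all genes 19.4% rose, with a median of -0.06. The count was 22 to 25 without any 1 array, 24 with 1 fall after quantile normalization and 27 with equal medians. It was 19 without the variance trend and 15 when the spread was estimated from all 12 arrays. Thymidylate synthase (Ts) rose by 1.53, with 1912, 1916 and 1702 in the knockdown, against 617, 679 and 619 in wild type. PCNA, the replication clamp, rose by 0.54 (6137, 6246 and 6028, against 4377, 4219 and 4083 in wild type) and the replicative helicase subunit Mcm3 by 0.61. The kinesin gene ncd, needed for meiotic spindles in females, rose by 0.90, and cort, a female meiotic activator of the anaphase-promoting complex, by 0.79.

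Proteasome subunits rose together by a small amount. Of 26, 22 rose (84.6%) and 0 fell, with a median of 0.16, and 0 fell also at an unadjusted limma p under 0.05. Among all genes of 10 to 12 log2, the class of their median level, 38.5% rose and the median was 0.09. The rises numbered 15 to 18 without any 1 array, 14 with all 12 arrays in the fit, 6 without the variance trend and 26 with equal medians. Prosbeta6 had 4868, 5219 and 5209 in the knockdown, against 4261, 4145 and 3973 in wild type, a log2 change of 0.31, and Prosalpha6 rose by 0.28. None of the 26 reached 2-fold. Of 14 testis forms of the subunits, 0 rose (0 also at an unadjusted limma p under 0.05) and 5 fell (35.7%, median -0.48), near the 37.0% of all genes at their level of 6 to 8 log2, with 2 falls under equal medians or without wild-type replicate 2 or 3. Prosalpha6T had 116, 97.8 and 129 in the knockdown, against 183, 228 and 237 in wild type, a log2 change of -0.92, and Rpn12R fell by 0.80.

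DNA repair and cell death genes held more rises than falls. Both lists have a median level of 8 to 10 log2, where 30.5% of all genes rose and 26.0% fell. Of 25 DNA repair genes, 10 rose and 2 fell (median 0.05). The nuclease gene mre11 rose by 0.84 (1194, 1186 and 1117 in the knockdown, against 688, 630 and 633 in wild type) and mus304, a checkpoint gene, by 0.60. The mismatch repair gene Msh6 fell by 0.64. Of 19 apoptosis genes, 7 rose (36.8%, near the share of that class) and 2 fell (median 0.16). Besides Drep1, the initiator caspase gene Dronc rose by 0.86, with 686, 696 and 639 in the knockdown and 369, 377 and 365 in wild type. p53, the stress-responsive transcription factor, rose by 0.35. Dredd, a caspase of the Imd immune pathway, fell by 0.40. With equal medians, the falls numbered 1 and 0 in these lists.

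Of 25 genes of endoplasmic reticulum folding and stress, 7 rose (28%) and 2 fell (median 0.02), and with equal medians 18 rose and 0 fell (median 0.30). At the list's median level of 10 to 12 log2, 38.5% of all genes rose, with a median of 0.09. PEK, the kinase that slows translation when unfolded proteins gather, rose by 1.45, with 1626, 1611 and 1511 in the knockdown, against 571, 605 and 557 in wild type. The stress transcription factor gene Atf6 rose by 0.91 (1912, 1822 and 1674, against 1027, 841 and 1025 in wild type). Sec61beta, a channel subunit of the same organelle, fell by 0.38. Of 16 heat shock proteins, 2 rose and 8 fell (50%, median -0.17), with 7 rises and 3 falls under equal medians (median 0.11). At the list's median level of 12 log2 and over, 30.7% of all genes fell. The mitochondrial chaperone gene Hsp60A fell by 0.60 (4090, 4169 and 4170 in the knockdown, against 6338, 6477 and 6070 in wild type), while the small heat shock genes Hsp26 and Hsp27 rose by 0.44 and 0.42.

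Genes of late sperm development were lower. Of 33, 1 rose and 22 fell (66.7%), with a median of -0.56, and 20 fell both with equal medians (median -0.28) and after quantile normalization. At the list's median level of 8 to 10 log2, 26.0% of all genes fell. Mst87F, a sperm tail protein, had 937, 619 and 669 in the knockdown, against 1573, 1827 and 1802 in wild type, a log2 change of -1.25. Mst77F, a protein of sperm chromatin, had 2320, 2188 and 2531 in the knockdown, against 3414, 3527 and 3587 in wild type, a log2 change of -0.58, and djl and S-Lap7 fell by 0.72 and 0.76. The summed signal of the 33 genes was 21407 to 25271 in the knockdown and 33366 to 37721 in wild type, without overlap, and 5 of them were low in both groups. The meiotic phosphatase gene twe was the rise, at 0.41. Of 12 meiotic arrest factors, which switch on these genes, 2 rose and 2 fell (median -0.26, and 0.019 with equal medians): vis rose by 2.24 (301, 256 and 296 in the knockdown, against 51.7, 65.2 and 63.8 in wild type), while its close duplicate achi was at least 1.67-fold lower, a call lost without wild-type replicate 3 (adjusted p = 0.060). Probe sets for such duplicates can share sequence.

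Other reproductive genes were less clear. Of 31 accessory gland and seminal protein genes, 0 rose (2 at an unadjusted limma p under 0.05) and 12 fell (median -0.31). These falls made up 38.7% of the list, against 26.0% of all genes at its median level of 8 to 10 log2. With equal medians 3 rose and 4 fell, and without the variance trend 3 fell. The falls numbered 7 without knockdown replicate 1 or 2 or wild-type replicate 2, and 19 without knockdown replicate 3. The summed signal overlapped, at 69519 to 102320 in the knockdown and 92636 to 116530 in wild type. Acp53C14c had 120, 75.0 and 262 in the knockdown, against 445, 589 and 408 in wild type, a log2 change of -1.83, and Acp26Ab fell by 0.58. Glucose dehydrogenase (Gld) fell by 0.95.

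Of 31 yolk, eggshell and oogenesis genes, 6 rose and 10 fell (median -0.06), but 15 rose and 2 fell with equal medians (median 0.22). The rises numbered 2 without knockdown replicate 1 or wild-type replicate 1 or 3 and 3 without wild-type replicate 2, the falls 6 without wild-type replicate 2 or 3, and with all 12 arrays in the fit 1 rose and 0 fell. The vitelline membrane gene Vm26Ac fell by 0.84 (614, 586 and 734 in the knockdown, against 1070, 1132 and 1243 in wild type), and bcd, a maternal anterior determinant, rose by 0.40. The summed signal was 176600 to 195450 in the knockdown and 198570 to 207340 in wild type. Besides Send2, the other called gene of 4 of the spermatheca and female tract (median -0.02, and 0.26 with equal medians) was the nuclear receptor gene Hr39, at 0.34 by the brightest of its 4 probe sets, and at -0.55 by another that was also called, and that rise was lost without wild-type replicate 2 (adjusted p = 0.062). Of 15 sex determination and dosage compensation genes, 3 rose and 2 fell (median 0.18). The splicing regulator gene tra rose by 0.43 and fl(2)d fell by 0.31. The sex of the flies on each array is not given, so a different share of males and females was not tested as a source of these differences.

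**Figure D4:**
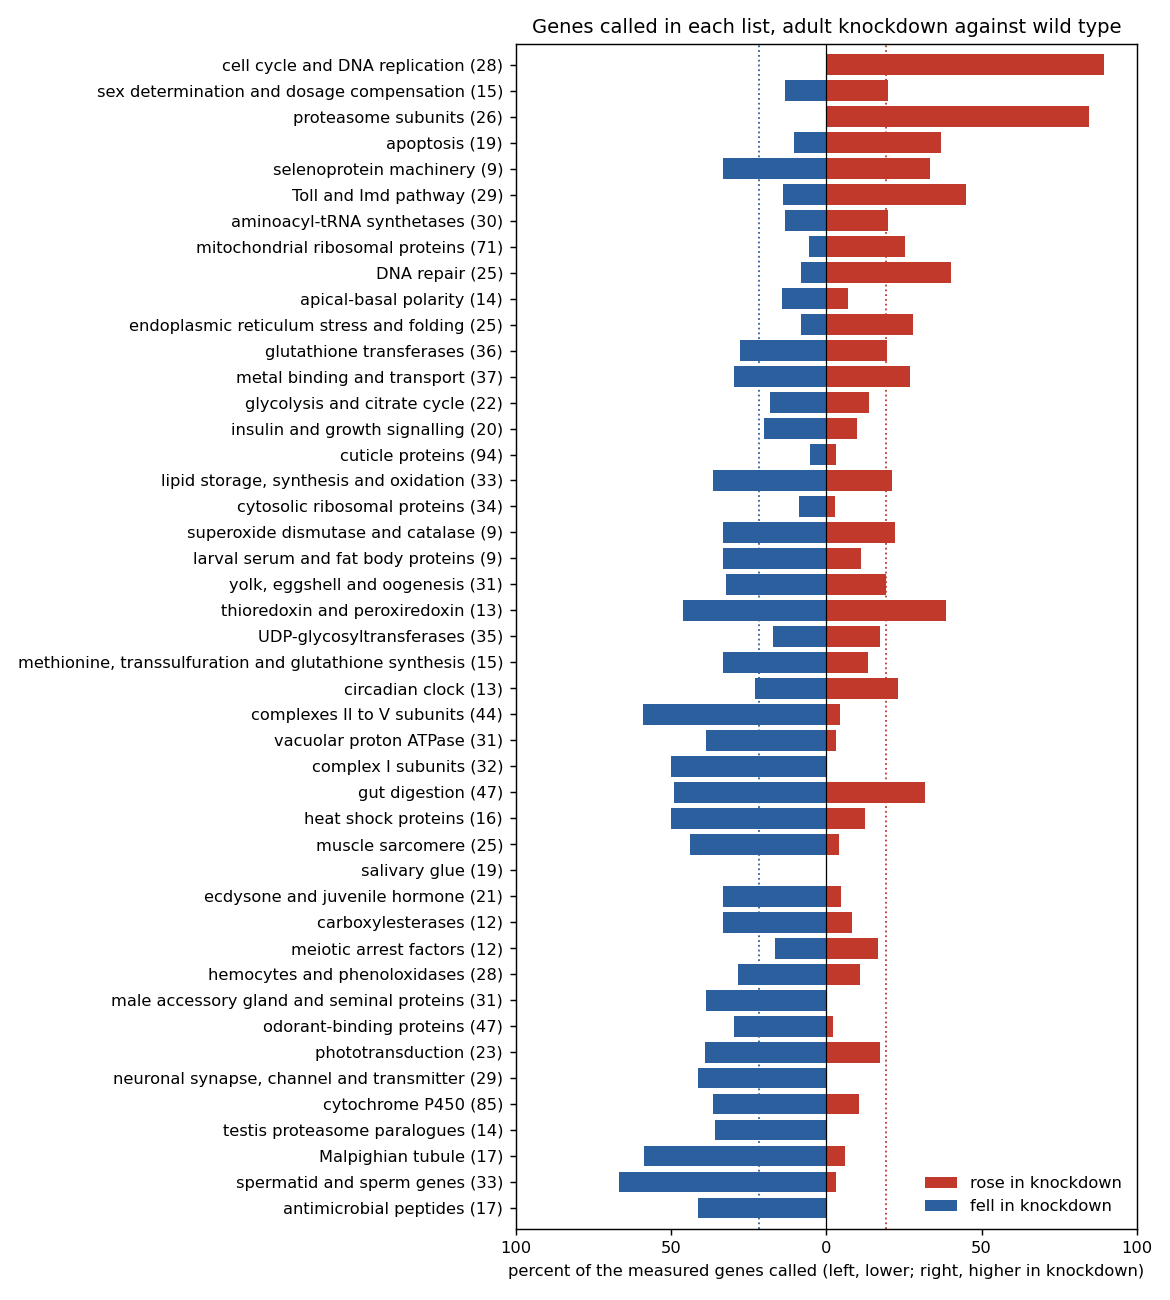
Percent of the measured genes of each list that were called higher and lower in the knockdown, for lists with at least 9 genes measured. Dotted lines give the same for all genes, 19.4% higher and 21.7% lower. Cell cycle and proteasome genes stand out on the higher side and spermatid genes on the lower side. The balance of the lists with small changes turned with the array scaling.

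Antimicrobial peptide genes were lower, while genes of the pathways that induce them were more often higher. Of 17 peptide genes, 0 rose (0 also at an unadjusted limma p under 0.05) and 7 fell (41.2%, median -0.60). With equal medians 2 rose and 6 fell (median -0.32). At the list's median level of 8 to 10 log2, 26.0% of all genes fell, with a median of 0.05. Defensin (Def) had 760, 528 and 786 in the knockdown, against 1597, 1437 and 1185 in wild type, a log2 change of -1.04. Drsl4, of the drosomycin family, fell by 0.83 (3097, 3555 and 3518, against 5860, 5946 and 6268 in wild type), and BomS2, a short secreted peptide, by 0.71. Of 29 genes of the Toll and Imd pathways, 13 rose (44.8%) and 4 fell (median 0.08). Of all genes of 8 to 10 log2, the class of their median level, 30.5% rose and the median was 0.05. As deposited the pathway falls numbered 2 without knockdown replicate 1 or wild-type replicate 1 and 7 without knockdown replicate 3. With equal medians 16 pathway genes rose and 0 fell (median 0.36). The Toll ligand gene spz rose by 0.61 (1354, 1329 and 1355 in the knockdown, against 915, 914 and 817 in wild type), the adaptor gene Myd88 by 0.52 and the kinase gene IKKbeta by 0.55. The inhibitor gene cact was called at 0.29 and, by its second probe set, at -0.47, and PGRP-LB, which degrades the bacterial trigger of Imd, fell by 0.70.

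Of the 3 lysozymes measured, LysX was the only rise, and LysP fell by 0.61 with 759, 703 and 741 in the knockdown, against 1096, 1081 and 1179 in wild type. LysS was at least 1.33-fold lower, a call lost without wild-type replicate 1, 2 or 3 (adjusted p up to 0.105), and its log2 change of -1.65 became -1.01 without knockdown replicate 1. Of 28 genes of blood cells and melanization, 3 rose and 8 fell (28.6%, against 37.0% of all genes of 6 to 8 log2, where the list's median level lies; median -0.29), and with equal medians 6 rose and 6 fell (median -0.01). Fondue (fon), a clotting protein, fell by 0.90 (2397, 2201 and 2363 in the knockdown, against 4434, 4317 and 4260 in wild type), and hemolectin (Hml), a marker of plasmatocytes, by 0.93. NimC1, a phagocytosis receptor of the same cells, was at least 3.02-fold higher, and the phenoloxidase gene PPO1 rose by 0.75. The members thus moved in opposite directions, while their summed signal was 10400 to 10710 in the knockdown and 13690 to 14086 in wild type.

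Metal handling genes changed in both directions, and among them are the metallothioneins, which bind copper and other metals. Of 37 genes, 10 rose (27.0%) and 11 fell (29.7%), with a median of -0.01, and 0.27 with equal medians. At the list's median level of 8 to 10 log2, 30.5% of all genes rose and 26.0% fell. The list's falls numbered 5 or 6 without knockdown replicate 1 or 2 or without wild-type replicate 1, 2 or 3. Besides MtnB and Zip102B, MtnD rose by 1.09 (1750, 1717 and 1843 in the knockdown, against 895, 802 and 797 in wild type) and MtnC by 0.86 (5626, 4894 and 5468, against 3073, 2910 and 2795 in wild type). The zinc transporter gene ZnT35C, which is expressed in the renal tubule, fell by 0.55.

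Tubule and gut genes held more falls than rises as deposited. Of 17 Malpighian tubule genes, the fly's renal organ, 1 rose and 10 fell (58.8%, median -0.55). With equal medians 3 rose and 7 fell (median -0.27). At the list's median level of 8 to 10 log2, 26.0% of all genes fell. The transporter genes salt and Picot fell by 1.25 and 1.08. For salt the signals were 325, 368 and 382 in the knockdown, against 874, 806 and 878 in wild type. The potassium channel gene Irk2 fell by 0.69. The summed signal of the list was 11853 to 12260 in the knockdown and 14787 to 15202 in wild type, and none of the 17 was low in both groups.

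Of 47 digestive genes, 15 rose and 23 fell, 7 and 5 of them by 2-fold or more. The median was -0.17, and 0.11 with 17 rises and 11 falls under equal medians. As deposited, rises made up 31.9% and falls 48.9%, against 30.5% and 26.0% of all genes at the list's median level of 8 to 10 log2. The maltase genes Mal-A1, Mal-A6 and Mal-A7, which split disaccharides, rose by 1.20, 1.37 and 1.43. For Mal-A1 the signals were 4338, 5198 and 4928 in the knockdown, against 2082, 2205 and 2004 in wild type. The trypsin gene thetaTry fell by 1.76, with 1343, 1225 and 1506 in the knockdown, against 4711, 4496 and 4572 in wild type, and the sterol-binding gene Npc2d fell by 1.11. Ser12, described above, is also in this list and was its largest rise. The summed signal was 146960 to 163670 in the knockdown and 178360 to 185750 in wild type.

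In lipid metabolism, of 33 genes 7 rose and 12 fell (median -0.03, and 0.25 with 14 rises and 5 falls under equal medians). Besides whd, the thiolase gene yip2 rose by 0.74 (3419, 3691 and 3520 in the knockdown, against 2255, 2063 and 2027 in wild type). The acyltransferase genes Agpat1 and Agpat2, of phosphatidic acid synthesis, rose by 0.97 and 0.71. FASN1, the fatty acid synthase, fell by 0.55, with 6260, 6522 and 6453 in the knockdown, against 9116, 9352 and 9606 in wild type. These were the 5 called members with the smallest adjusted p.

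Of 22 genes of glycolysis and the citrate cycle, 3 rose and 4 fell (median -0.01, and 0.27 with 16 rises and 0 falls under equal medians), and the falls numbered 2 without wild-type replicate 1 or 2. The malic enzyme genes Men-b and Men went opposite ways, at 0.53 and -0.37, both called. Of 20 insulin and growth signalling genes, 2 rose and 4 fell (median -0.01, and 0.27 with 9 rises and 3 falls under equal medians). The rises numbered 1 without any 1 of the arrays but wild-type replicate 2. The kinase gene S6k fell by 0.59 (1337, 1178 and 1264 in the knockdown, against 2050, 1735 and 1919 in wild type), and the insulin receptor gene InR rose by 0.25. ImpL2, a secreted protein that binds insulin-like peptides and is induced by ecdysone, fell by 0.56, with 1315, 1151 and 1197 in the knockdown and 1644, 1853 and 1912 in wild type.

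Hormone and larval genes were examined because Eip63E and Lsp2 were among the largest rises. Of 21 genes of ecdysone and juvenile hormone, 1 rose and 7 fell (33.3%, median -0.18), and with equal medians 4 rose and 3 fell (median 0.10). At the list's median level of 6 to 8 log2, 37.0% of all genes fell, with a median of -0.35. The nuclear receptor gene Hr38 was at least 1.92-fold lower and jhamt, a late enzyme of juvenile hormone synthesis, fell by 1.39, with 95.5, 82.5 and 91.9 in the knockdown, against 374, 273 and 127 in wild type. The ecdysone receptor partner usp rose by 0.27. Of 9 larval serum and fat body genes, Lsp2 was the only rise and 3 fell (median -0.04, and 0.24 with equal medians), 1 without knockdown replicate 2, and Apoltp, a lipid transfer protein of the blood, fell by 0.64. Their summed signal overlapped, at 18553 to 18853 in the knockdown and 18220 to 19161 in wild type.

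The salivary markers of larval tissue were low throughout. All 19 salivary glue genes were low in both groups and none was called (median -0.18, and 0.10 with equal medians), with a summed signal of 115.25 to 212.74 in the knockdown and 152.97 to 200.37 in wild type. The 2 with the smallest p were ng4 (-1.73, adjusted p = 0.14) and Eig71Ek (1.67, adjusted p = 0.18). At an unadjusted limma p under 0.05 the count was 0 as well, and it was 0 without the variance trend. Of 94 cuticle protein genes, 68 were low in both groups, 3 rose and 5 fell (median -0.02), and with equal medians 10 rose and 3 fell (median 0.26). The rises numbered 0 without knockdown replicate 1, 2 or 3 and 1 without wild-type replicate 2, and the falls 2 without wild-type replicate 1 and 3 without replicate 2 or 3. Cpr49Ab, which had the smallest adjusted p of them, fell by 0.60 (788, 804 and 869 in the knockdown, against 1216, 1160 and 1370 in wild type).

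Genes of sense organs, nerve and muscle held more falls than rises as deposited. Odorant-binding proteins carry small molecules to chemoreceptors and are also made outside the antenna. Of 47, 1 rose and 14 fell (29.8%), 7 of them by 2-fold or more, with a median of -0.31. With equal medians 4 rose and 13 fell (median -0.03). At the list's median level of 4 to 6 log2, 8.65% of all genes fell. Obp57b fell by 2.57, with 104.05, 109 and 118 in the knockdown, against 636, 672 and 657 in wild type. Its neighbours Obp57a and Obp57c fell by 1.74 and 0.99. Obp99c was the rise, at 0.34, and the rises numbered 5 without knockdown replicate 2 and 2 without knockdown replicate 1 or wild-type replicate 3.

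Of 23 phototransduction genes, 4 rose and 9 fell (39.1%, median -0.33), but with equal medians 8 rose and 3 fell (median -0.05). At the list's median level of 8 to 10 log2, 26.0% of all genes fell. The rises numbered 2 without knockdown replicate 1 or wild-type replicate 1. The light-activated channel gene trp fell by 0.75 (350, 336 and 377 in the knockdown, against 593, 632 and 564 in wild type), while its relative trpl rose by 0.54 (534, 479 and 503, against 332, 349 and 361 in wild type). The arrestin gene Arr1 fell by 0.62 and the lens protein gene retinin rose by 0.81. The summed signal of these eye markers was 18609 to 20487 in the knockdown and 22313 to 24370 in wild type.

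Of 29 neuronal genes, 0 rose (1 at an unadjusted limma p under 0.05) and 12 fell (41.4%, median -0.36), near the 37.0% and -0.35 of all genes of 6 to 8 log2, the class of their median level. With equal medians 3 rose and 2 fell (median -0.08). The falls numbered 7 without knockdown replicate 1 or 2 and 6 without wild-type replicate 2. Appl, the fly amyloid precursor relative, fell by 0.71 (239, 226 and 281 in the knockdown, against 429, 387 and 396 in wild type), and Gad1, which makes the transmitter GABA, by 0.44. Of 25 sarcomere genes, 1 rose and 11 fell (44%, median -0.17), and the falls numbered 6 without knockdown replicate 2 or wild-type replicate 3. With equal medians 7 rose and 0 fell (median 0.11). At the list's median level of 10 to 12 log2, 20.8% of all genes fell. Mlc2, a myosin light chain, fell by 0.41 and Zasp66, a Z-disc protein, by 0.42. Of 13 clock genes, 3 rose and 3 fell (median -0.15, and 0.13 with equal medians): the kinase gene dco rose by 0.22 and the repressor gene cwo fell by 0.39. The summed signals were lower in the knockdown for both tissues, at 7728.7 to 8262.8, against 9772.7 to 10642 in wild type, for neuronal genes and at 47686 to 52742, against 54635 to 58159 in wild type, for muscle genes. The summed signals of 8 of the 11 marker lists were thus lower on every knockdown array as deposited, larval serum, glue and accessory gland being the exceptions. With equal medians, a scaling of these sums chosen after seeing the data, that held for spermatid genes (24759 to 27061 in the knockdown, against 30823 to 33178 in wild type) and neuronal genes (8525.5 to 8939.2, against 9027.6 to 9289.3 in wild type). The sums of yolk, gut, muscle and larval serum genes were then higher on every knockdown array, and the part of tissue content in the single-gene results was not tested.

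**Figure D5:**
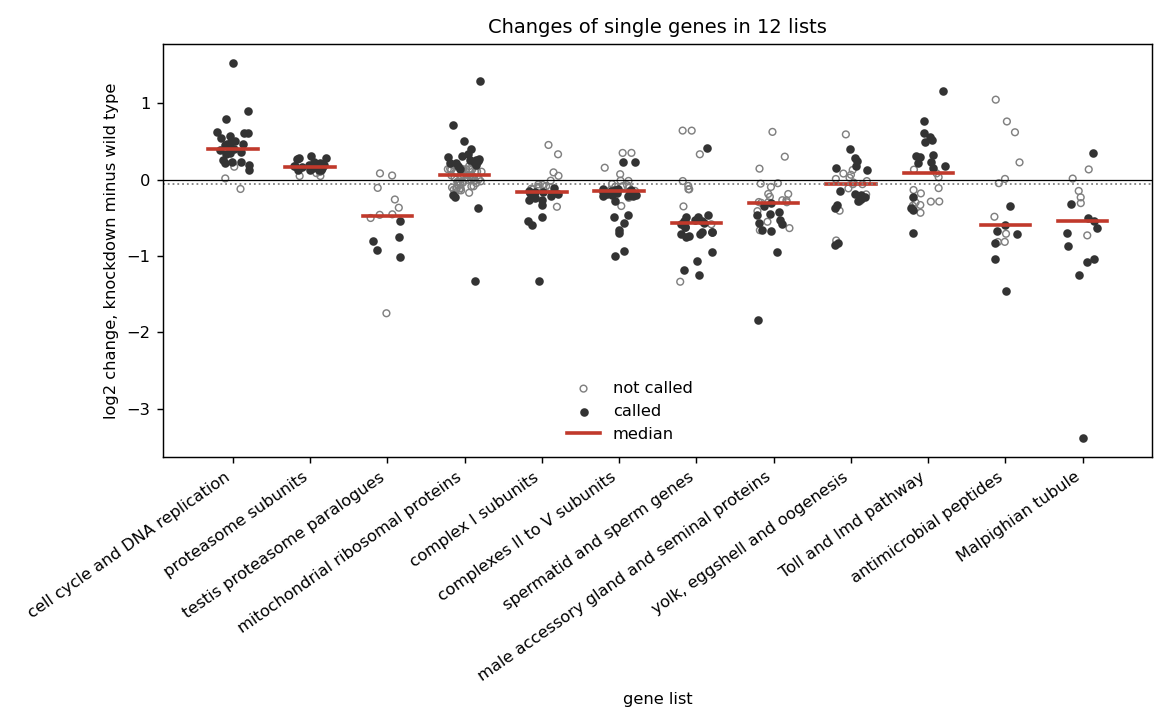
Log2 difference, knockdown minus wild type, of each measured gene in selected lists, 1 point per gene, with called genes marked and the list's median drawn. Cell cycle genes lie mostly above 0 (median 0.40) and spermatid genes mostly below it (median -0.56). With equal array medians every point would lie 0.28 higher.

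The calls were spread over the genome. On the large chromosome arms, genes that rose made up 18.8% (2R) to 20.4% (X) and genes that fell 18.0% (X) to 23.0% (2L). Differences of 2-fold or more were least common on X, where 0.96% rose and 2.40% fell, against 1.85% and 4.08% on 2R. Of 11893 placed genes, 579 (4.87%) were called at 2-fold or more, and 78 of these (13.5%) had an adjacent gene called at 2-fold or more the same way. Neighbouring pairs went the same way in 42 cases and opposite ways in 22. Falls of 2-fold or more outnumbered such rises over all genes (405 against 181), which by itself favours pairs going the same way. How many pairs a random gene order would give was not tested.

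Some runs of neighbours were called in the same direction throughout. The maltase genes Mal-A6, Mal-A7 and Mal-A8 on 2R rose by 1.37, 1.43 and 1.27. On the same arm CG12780 fell by 2.44, Cyp6a14 by 1.11 and Cyp6a13 by 1.52. On 3R the adjacent genes CG31077, CG6296, CG6295 and CG17192 fell by 1.36, 2.53, 2.89 and 2.84, and on 2L CG11912, CG11911 and CG33127 fell by 1.501, 1.62 and 1.09. On X, CG14219 and CG14205 fell by 1.14 and 1.37 next to CG14204, which was low in the knockdown. Related neighbours can share probe sequence, and this was not tested.

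The adult effect was set against that in larvae, with all 12 arrays in 1 fit. The effects differed between the stages for 2346 probe sets (12.5%), or 2000 genes (16.7%). For Sps2 the adult change was -2.80 and the larval change -2.31, and the difference of -0.49 was not called (SE 0.17, adjusted p = 0.087). None of the other 8 genes of the selenoprotein machinery differed by a call either. SelG stood at -0.43 in adults and -0.62 in larvae, and SelT at -0.47 and -0.53.

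Of the 30 genes with the largest adult changes, 18 differed between the stages and 12 were not called. The 30 were picked for their change on the adult arrays, which also enter this test. That choice favours a difference, so the 18 cannot be weighed against the share of all genes. The genes not called included Prx6c (6.51 in adults and 5.82 in larvae), whd (3.50 and 3.80), l(2)gl (-5.64 and -5.87), Oatp58Db (-3.38 and -4.53) and Cyp12c1 (-3.08 and -3.61). These had moved strongly at both stages. Eip63E rose at both as well, by 4.77 in adults and 4.15 in larvae, with a small difference of 0.62 that was called (adjusted p = 0.024). The gene mol had a change of -4.17 in adults, against -0.06 in larvae, and the difference of -4.11 was called (SE 0.30, adjusted p = 5.2e-06). Cyp6a19 behaved likewise, at -2.92 in adults and 0.04 in larvae. Lsp2 went opposite ways, at 2.77 in adults and -5.60 in larvae.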

How the data were processed

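The authors summarised each probe set on each array with MAS5, as the submitters' processing notes say, in a version not stated there. That these deposited values are log2 signals was read from the values: their linear form has nearly the same trimmed mean on every array. The number of arrays, 3 a group, limits the precision.

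Of 18952 probe sets, 183 controls were left out and 18769 tested without a filter. Platform annotation gave 1 symbol to 13647 probe sets, several to 402 and none to 4720; the Entrez IDs of 13544 were found in RefSeq (Release 6 plus ISO1 MT), which changed 0 symbols. The brightest probe set over the 6 adult arrays stood for a gene. The 6 adult arrays alone entered the main model (R 4.3.3, limma 3.58.1, lmFit and eBayes with a variance trend). All 12 entered the test of the stage difference. With 3 against 3 arrays the smallest two-sided exact permutation p is 0.1, so single values were given no such test.

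The genes named are the selenoprotein machinery and the 15 largest rises and 15 largest falls among called genes with a name other than an annotation number, with separate groups and a higher group mean of at least 6.57 log2. Of each list, up to 5 called genes with the smallest adjusted p, up to 2 in the direction with fewer calls, or the 2 smallest p where none was called, were eligible. CG genes of the runs of neighbours, second probe sets and Mal-A8, Cyp6a13 and Cyp6a14 were named after their values were seen. Comparison, members and the 49 lists were chosen with earlier results of these data known; 25 of 871 list entries given by symbol were not matched. Same-numbered arrays of the 2 genotypes did not deviate together (residual r of -0.035, -0.021 and -0.003), so numbers were not used as pairs. The fit was tested on simulated data. Promoter motifs were planned and not examined, since no sequence was used here.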

Additional observations from a re-analysis of the deposited data

Results flagged for a closer look

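Among the genes with the largest adult changes, 18 had an effect in adults that differed from that in larvae by the test of the difference itself (limma on all 12 arrays, adjusted over all probe sets). They were picked for a large change on the adult arrays, which also enter this test, and that choice by itself favours a difference. The values below are adult minus larval effect on the log2 scale. Of the genes that rose in adults, LysX differed by 8.55 (adjusted p = 0.00021), Lsp2 by 8.37, Ser12 by 4.89, Cda9 by 4.21, Drep1 by 3.42, Alms1a by 1.39, Rbm13 by 1.28 and Eip63E by 0.62. For LysX, Lsp2, Cda9 and Drep1 the larval change was below 0, at -1.05, -5.60, -0.11 and -0.90, and of these Lsp2 was called in larvae. The gene alpha-Est2 differed the other way, by -3.07, with a larger larval rise of 7.35. The Eip63E difference was not called with the replicate block (adjusted p = 0.055) or without adult knockdown replicate 2, adult wild-type replicate 1 or 2 or larval knockdown replicate 2 (adjusted p up to 0.078), and that of alpha-Est2 was not called without adult wild-type replicate 3 (adjusted p = 0.052).

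Of the genes that fell in adults, Obp51a differed by -6.20, Send2 by -5.08, Ugt35B1 by -4.91, mol by -4.11, Obp99d by -3.48, Cyp6a19 by -2.96, otk2 by -2.71 and Jon66Ci by -2.56. Obp51a (larval change 1.91, adjusted p = 0.078) and Send2 (1.31, adjusted p = 0.14) were not called in larvae. GstE5 differed by 1.44, with an adult change of -2.72 and a larger larval one of -4.16.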

How the results depend on the processing

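Sps2 stayed called under every alternative, at -2.71 to -2.85 with any 1 adult array left out. The count of called probe sets, 5770, became 3776 without the variance trend, 3375 with all 12 arrays in the fit, and 13889 with values floored at the 40th percentile. With any 1 array left out the count was 4566 to 5580. Each array was floored at its own percentile, which was lower on the knockdown arrays. Probe sets floored on every adult array, such as that of Eig71Ek, therefore all carry the same difference of -0.19. They can be called lower for that reason alone. Calls higher in the knockdown, 2726, became 5397 with array medians set equal, 1613 without the trend and 1561 with all 12 arrays (2151 to 2629 with 1 array left out). Calls lower, 3044, became 1307 with equal medians, 1814 with all 12 arrays and 10819 with floored values (2319 to 2951). Calls of 2-fold or more, 804, became 531 with floored values (708 to 838); those higher, 264, became 524 with equal medians and 174 with floored values (221 to 282); those lower, 540, became 311 and 357 (429 to 595). The stage difference, 2346 probe sets, became 4209 with equal medians (1575 to 2468). The replicate block gave 5605 calls, 5399 of them among the reported ones; the numbers share no more than a number.

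Of 255 named genes, 250 were called beside Sps2, and of these 52 lost the call without the trend, 52 with all 12 arrays, 53 with equal medians, 11 after quantile normalization, 6 with the block, and 9 to 18 with 1 array left out. With equal medians these changed sign: SecS 0.20, Cat 0.064, alpha-Est5 0.029, RpLP0 0.12, ND-B14.5A 0.015, ATPsynB 0.0020, VhaM9.7-b 0.045, Vha44 0.062, orb 0.093, fat-spondin 0.057, par-1 0.041, Hsf 0.0023, Cnx99A 0.047 and Idh3b 0.0069; with floored values Eig71Ek and Cpr65Eb stood at -0.19. Why the array medians differ between the genotypes was not tested. The motif description was not run.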

Other observations

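Genes known only by an annotation number made up 81 of the 181 genes called at least 2-fold higher in the knockdown. They made up 235 of the 405 called at least 2-fold lower. Their share of all genes measured was not counted, so these numbers cannot be read as an excess or a deficit. Several of these genes changed as much as the named genes. CG32984 was at least 10.98-fold lower and CG43085 at least 11.3-fold lower in the knockdown, while CG7900 was at least 11.5-fold and CG14259 at least 9.16-fold higher. Each of these 4 was at low signal in the group in which it was lower. They were picked after their values were seen, and no role is given for them here.

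Probe sets of a gene did not always move together. Of 1094 genes with more than 1 probe set, 398 were called by the brightest one. Their other probe sets numbered 621, of which 136 were called, 97 in the same and 39 in the opposite direction. Which transcripts each probe set reads was not examined.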
